A study of Mus musculus with 3 samples.

Results

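Keratin genes and the genes of the cornified envelope were followed through follicle-associated epithelium of the mouse small intestine, the epithelium that covers the lymphoid follicles of Peyer's patches. The genes were chosen by symbol: Krt followed by a number, or a symbol that begins with Lce or Sprr, on probe sets listed under a single gene symbol. This gave 72 genes of the 18193 genes on the arrays, namely 48 Krt, 15 Lce and 9 Sprr genes. Of the 72 genes, 11 had several probe sets, and for these the probe set brightest on average over the 3 arrays was taken. RefSeq holds 93 such symbols in mouse assembly GRCm38.p6, and the 21 without a probe set of their own were not analysed here. One group is wild type for RBP-J (1 array). In the other, RBP-J was depleted with VillinCre and Rbpj flox/flox alleles (2 arrays, called here the first and the second depleted array). Both groups are C57BL/6 mice, untreated, and the labels give no age. Nothing in them says that the depleted samples are different mice, and their spread may be technical. The Villin promoter drives Cre in intestinal epithelial cells, so the lymphocytes and stroma that can come along with this epithelium keep RBP-J. The question is whether keratin and envelope genes differ when RBP-J, the DNA-binding partner of Notch receptors, is depleted.

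Keratins form the intermediate filaments of epithelial cells as pairs of a type I and a type II protein. Simple epithelia such as that of the intestine are built on Krt8 with Krt18, Krt19 and Krt20, whereas stratified epithelia such as epidermis use Krt5 with Krt14 in basal cells and Krt1 with Krt10 above them, and hair follicles have keratins of their own. The cornified envelope is the protein shell that replaces the membrane of dying epidermal cells. Small proline rich (Sprr) and late cornified envelope (Lce) proteins are crosslinked into that shell by transglutaminases, and some Sprr genes are also active in gut epithelium. The 72 genes lie on 3 chromosomes, with 24 keratin genes on chromosome 11, 24 on chromosome 15, and the 24 Lce and Sprr genes on chromosome 3.

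Values are microarray intensities in multiples of the array median, so a value above 1 lies above the median of its array. Where a value of wild type is set against a pair of values, these are those of the first and the second depleted array in that order. A difference is depleted minus wild type on the scale log2(value + 0.248). The test is limma over the 11885 genes whose mean reached 0.598, with p-values adjusted by Benjamini-Hochberg over all of them. A gene is called where its adjusted p is under 0.05. Wild type has 1 array, so its own spread is unknown and is taken to be that of the depleted arrays. Limma weighs a gene's own spread as 1 degree of freedom and the spread of genes of like intensity as 600.5. Each SE and interval is thus set almost wholly by the pooled genes and hardly by a gene's own depleted arrays. Across the genes tested, the median difference was -0.003 for the first depleted array and 0.22 for the second, the levels against which differences are to be read. Rbpj read 7.15 in the wild type array and 2.72 and 5.74 in the depleted ones, and was not called (limma adjusted p = 0.9997). The genotypes also differed in sex-linked transcripts, with Xist at 0.297 in wild type and at 42.8 and 43.4 in the depleted arrays, so genotype and sex cannot be told apart.

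The label of the tissue was checked against marker genes. All 10 intestinal epithelial markers, among them Epcam, Vil1 and Cdx2, and all 8 M cell markers, among them Gp2 and Spib, were above the array median on all 3 arrays. Of 9 measured markers of squamous epithelium or skin, Krt10 alone was above the median on every array. Krt1, Krt5, Krt10 and Krt14 of this list are among the 72 genes themselves, so their values are no separate check. Krt5, Krt14, Krt1, Dsc3, Ivl, Flg and Trp63 were below it on every array, and the epidermal envelope gene Lor was above it only in the first depleted array, at 1.13.

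Of the 72 keratin and envelope genes, 11 lay above the array median on all 3 arrays: Krt7, Krt8, Krt10, Krt18, Krt19, Krt20, Krt23, Krt42, Krt222, Lce3c and Sprr1a. Another 9 were above it on 1 or 2 arrays, and the other 52 on none, with values from 0.009 to 0.957 and a median of 0.228. The brightness of a probe set depends on its probes as well as on its transcript, so these levels place a gene against its array and not against another gene. Of the simple epithelial keratins 7 of 8 were above the median on every array, against 2 of 19 keratins of stratified epithelia. The counts were 0 of 21 for hair and root sheath keratins, 1 of 15 for Lce genes and 1 of 9 for Sprr genes. No share over all genes on the arrays is set beside these counts, so whether they are few or many was not tested. The keratin groups were assigned by hand. Krt222 counts among the 7 by its brighter probe set, and its other one was below the median on every array.

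**Figure D1:**
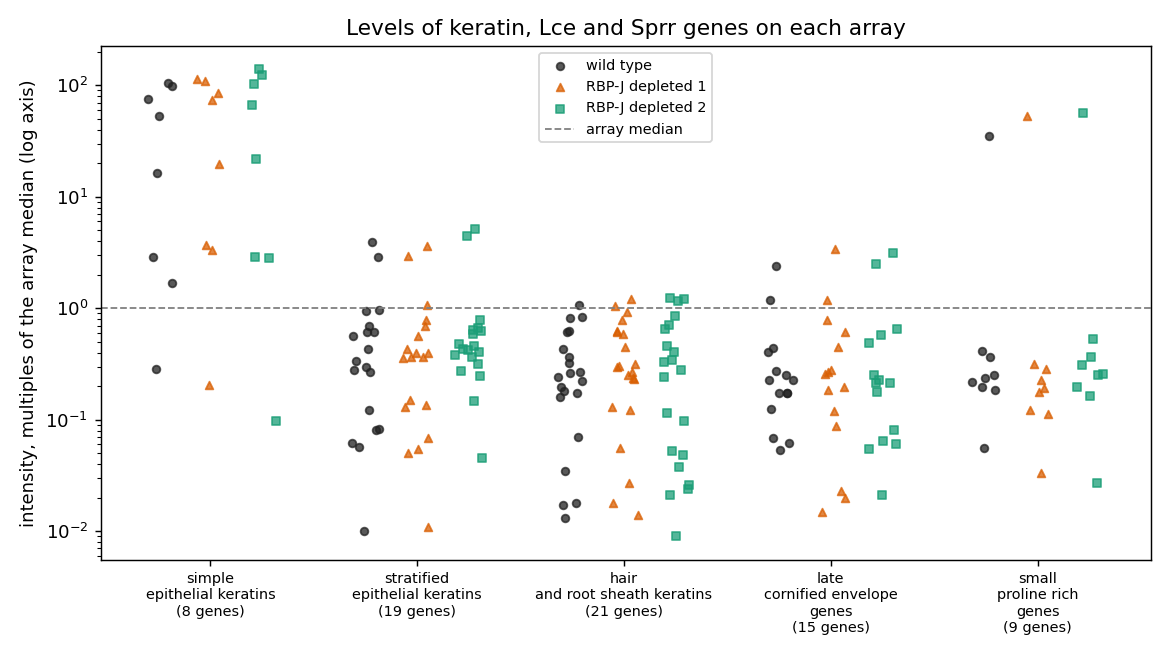
Intensity of each of the 72 genes in multiples of the array median (log axis), by gene group, with 1 point per gene and array and the array median as a dashed line. The simple epithelial keratins lie above the line in all but 1 gene, Krt80, and 52 of the 72 genes lie below it on every array.

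The keratins of simple epithelia, Krt80 apart, were above the median on every array, and none of them was called. In bulk tissue, fewer cells of a type and less RNA per cell cannot be told apart. Krt8, the type II keratin of the intestine, read 104 in wild type against 110 and 123. Its type I partner Krt18 read 53.1 in wild type against 74.4 and 66.4. The depleted arrays were both above wild type for each of the pair. The limma difference was 0.15 for Krt8 (SE 0.36, 95% interval -0.56 to 0.86, adjusted p = 0.9997) and 0.40 for Krt18 (SE 0.39, 95% interval -0.36 to 1.16, adjusted p = 0.9997). Neither interval reaches below a difference of -0.56, and that of Krt18 extends past a doubling. Krt8 has other probe sets, which share sequence with related transcripts by their x suffix. They read 86.4 against 93.4 and 116, and 92.3 against 111 and 122, so all 3 probe sets of Krt8 read higher in both depleted arrays.

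Krt19, a type I keratin without a tail domain that is widespread in intestinal epithelium, read 98.4 in wild type against 114 and 139. Krt20, the type I keratin of differentiated enterocytes and goblet cells, read 76.0 against 85.6 and 104. Krt7, a type II keratin better known from ducts and glands, read 16.3 against 19.6 and 21.6. In all of these, wild type was the lowest array and the second depleted array the highest. The depleted means were 126 ± 18.1 for Krt19, 94.7 ± 12.9 for Krt20 and 20.6 ± 1.43 for Krt7 (SD, n = 2). The limma differences were 0.35 (SE 0.36), 0.31 (SE 0.37) and 0.33 (SE 0.45), each with an adjusted p = 0.9997.

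The dimmer simple keratins were less alike. Krt23, a type I keratin, read 2.88 in wild type against 3.73 and 2.82, so that wild type lay between the depleted arrays. Krt222, a gene of the type I family, read 1.70 against 3.33 and 2.90 (difference 0.79, SE 0.52, limma adjusted p = 0.9997). Its other probe set did not show the same: it read 0.884 in wild type against 0.453 and 0.889. Krt80, a type II keratin, was at 0.283 in wild type and at 0.204 and 0.097 in the depleted arrays, below the array median on each.

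The sequence before the transcription start is shown for Krt8, Krt18 and Krt20, the keratin pair of the intestine and the keratin of its differentiated cells, since these are the keratins that define this epithelium. Krt8 and Krt18 are neighbours, with no other protein-coding gene between them in RefSeq. The windows are the 250 bases before the RefSeq start in GRCm38.p6, 5′ to 3′ on the strand of the gene. They lie at chr15:102004343-102004592 (minus strand) for Krt8, chr15:102027966-102028215 (plus strand) for Krt18 and chr11:99438154-99438403 (minus strand) for Krt20. Capitals mark matches, on either strand, to TGGGAA (the core of the RBP-J binding motif), TATAAA (the TATA box) or TGANTCA (the AP-1 motif), motifs that overlap nowhere in these windows.
Krt8: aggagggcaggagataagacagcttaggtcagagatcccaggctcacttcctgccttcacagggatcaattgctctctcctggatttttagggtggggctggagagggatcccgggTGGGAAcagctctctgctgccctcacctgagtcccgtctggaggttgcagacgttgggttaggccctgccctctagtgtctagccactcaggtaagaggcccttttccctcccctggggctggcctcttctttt
Krt18: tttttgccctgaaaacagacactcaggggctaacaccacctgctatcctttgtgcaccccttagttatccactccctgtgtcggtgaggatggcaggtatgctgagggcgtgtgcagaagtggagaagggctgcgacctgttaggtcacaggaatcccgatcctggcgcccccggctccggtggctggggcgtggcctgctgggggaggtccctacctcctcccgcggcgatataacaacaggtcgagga
Krt20: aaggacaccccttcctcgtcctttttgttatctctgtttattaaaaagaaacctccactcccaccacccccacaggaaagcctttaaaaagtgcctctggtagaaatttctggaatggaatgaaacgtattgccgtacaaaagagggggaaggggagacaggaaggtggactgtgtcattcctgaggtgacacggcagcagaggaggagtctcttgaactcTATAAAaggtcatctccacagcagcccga
Krt8 held 1 match to TGGGAA, 134 bases before the start, and Krt20 held 1 match to TATAAA, 29 bases before it. In the window of Krt18 none of the 3 motifs was found. Over all 32851 RefSeq windows of this length, 21.6% held TGGGAA, 12.4% TATAAA and 6.75% TGANTCA. RefSeq windows were given for 54 of the 72 genes, and of their 55 windows 14 held TGGGAA, 26 TATAAA and 9 TGANTCA. A match is a description of letters and not of binding.

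Among Sprr genes, Sprr1a alone was above the array median. Sprr1a, an envelope precursor that is also known from stressed epithelium, read 35.0 in wild type against 53.3 and 56.2. The depleted arrays lay close together, at 54.8 ± 2.04 (SD, n = 2), and both were above wild type. The limma difference was 0.64 (SE 0.40, 95% interval -0.15 to 1.43, adjusted p = 0.9997), so Sprr1a was not called. The other 8 Sprr genes, from Sprr1b and Sprr3 to the Sprr2 genes with a probe set of their own, read between 0.027 and 0.535 and were not tested.

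The rule leaves out probe sets with several symbols, and 3 of these are listed only under near-identical Sprr2a copies, which cannot be told apart. Sprr2a is an Sprr gene known to respond to bacteria in the gut. One of these probe sets read 99.8 in wild type against 115 and 150, another 93.4 against 110 and 137, and the last 18.8 against 23.3 and 20.8. On each of them both depleted arrays were above wild type, by 0.15 to 0.58 on the log2 scale. The 0.15, on the dimmest of them in the second depleted array, lies under the median of 0.22 for all genes tested. No test was made for probe sets outside the genes.

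Sprr1a and Lce3f are shown next, because Sprr1a is the bright envelope gene and Lce3f the gene with the largest difference among the 72. The windows, made and marked as above, lie at chr3:92485882-92486131 (minus strand) for Sprr1a and chr3:92991967-92992216 (plus strand) for Lce3f.
Sprr1a: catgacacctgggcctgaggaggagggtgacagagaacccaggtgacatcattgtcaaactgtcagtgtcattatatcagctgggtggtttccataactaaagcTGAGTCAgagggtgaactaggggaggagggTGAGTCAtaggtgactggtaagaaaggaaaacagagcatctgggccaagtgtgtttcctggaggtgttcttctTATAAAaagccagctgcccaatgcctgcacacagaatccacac
Lce3f: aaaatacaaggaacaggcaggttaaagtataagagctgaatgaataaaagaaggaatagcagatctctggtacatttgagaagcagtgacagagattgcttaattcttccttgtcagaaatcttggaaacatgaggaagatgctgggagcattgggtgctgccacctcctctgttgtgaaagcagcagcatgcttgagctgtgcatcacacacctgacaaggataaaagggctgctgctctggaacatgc
The window of Sprr1a held 2 matches to TGANTCA, 146 and 116 bases before the start, and 1 to TATAAA, 43 bases before it. That of Lce3f held none of the 3 motifs, which says only that these letters are not in this window.

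Lce3f was the single gene of the 72 that was called. Lce3f belongs to the Lce3 cluster of late cornified envelope genes, a cluster known for its response to damage of the skin barrier. It read 0.126 in wild type against 1.19 and 3.11. Wild type was far below the array median and both depleted arrays were above it, yet the depleted arrays differed from each other, at 2.15 ± 1.36 (SD, n = 2). The difference was 2.55 (SE 0.59, 95% interval 1.39 to 3.72, limma adjusted p = 0.0273), higher in both depleted arrays. This SE comes almost wholly from other genes of like intensity and hardly from the spread between the depleted arrays of Lce3f. Of all genes tested 0.0841% were called, 0.0421% higher and 0.0421% lower in the depleted arrays. Against this stands 1 of the 22 keratin and envelope genes tested. The 10 genes called include the sex-linked Xist, Eif2s3y, Kdm5d and Uty, so this share is not one of RBP-J depletion alone. Lce3f reached the test only through the depleted arrays, since its wild type value lies under the intensity minimum of 0.598 and under the pseudocount, which therefore sets the size of its difference. With a pseudocount of 1 the difference was 1.41 and was not called (limma adjusted p = 0.123). Nor was it called with quantile normalization, at 2.51 (limma adjusted p = 0.9999), with arrays brought to 1 common 75th percentile, at 2.51 (limma adjusted p = 0.731), or without the intensity filter. Lce3f has 1 probe set, so no other probe set bears on it.

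The other Lce genes gave no call. Lce3c read 2.38 in wild type against 3.40 and 2.52 (difference 0.27, SE 0.51, limma adjusted p = 0.9997). Both depleted arrays were above wild type, by 0.48 and 0.07, of which the 0.07 lies under the median of 0.22 for all genes tested. Lce3b went the other way, at 1.18 in wild type against 0.787 and 0.657 (difference -0.57, SE 0.60, limma adjusted p = 0.9997). The other 12 Lce genes, most of them Lce1 genes, were below the median on every array, between 0.015 and 0.616, and 5 of the 15 Lce genes were under the pseudocount on every array. Lce3f thus stood apart from Lce3b and Lce3c in its values, although the difference between these genes was not tested. The probe sets of Lce3b and Lce3c carry the x suffix of probes shared with related transcripts, so their values may not be theirs alone.

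**Figure D2:**
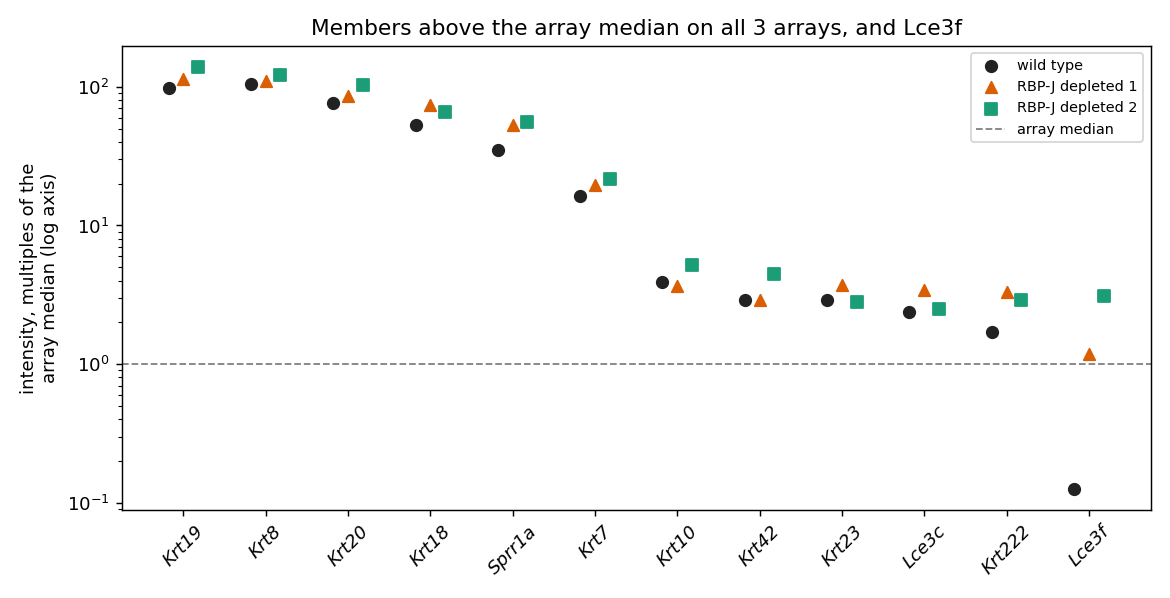
Intensity in multiples of the array median (log axis) on each of the 3 arrays, for the 11 genes above the array median (dashed line) on every array and for Lce3f, with 1 point per array. Lce3f read 0.126 in wild type against 1.19 and 3.11, whereas the arrays of Krt8 read 104, 110 and 123.

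Of the keratins of stratified epithelia, Krt10 and Krt42 were above the median on every array. Krt10, the type I keratin of suprabasal epidermis, read 3.89 in wild type against 3.65 and 5.17, with wild type between the depleted arrays. Krt42, a type I keratin, read 2.88 against 2.91 and 4.44 on its brightest probe set. Its other probe set read 2.92 in wild type against 1.11 and 1.63, below wild type in both depleted arrays. The direction of Krt42 therefore depends on the probe set, and its brighter one carries the x suffix of probes shared with related transcripts. Krt15, a basal keratin, read 0.957 against 0.430 and 0.633, below wild type in both. Krt16, a keratin of wounded epidermis, read 0.948 against 1.07 and 0.663, and Krt4, a keratin of the oesophagus, 0.691 against 0.785 and 0.777. This probe set of Krt4 also carries the x suffix. The other probe set of Krt4 read 0.499 in wild type against 0.448 and 0.427, below wild type in both depleted arrays. The limma adjusted p was 0.9997 for each of these 5 genes. The basal pair Krt5 and Krt14 stayed between 0.062 and 0.687, and the suprabasal Krt1 between 0.083 and 0.590.

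Hair and root sheath keratins lay near or under the median throughout. Krt33b, a type I hair keratin, read 0.324 in wild type against 0.617 and 1.23 (difference 0.98, SE 0.63, limma adjusted p = 0.9997). Krt36, another type I hair keratin, read 0.430 against 0.295 and 1.21, with wild type between the depleted arrays. The wild type values of Krt33b and Krt36 lie under the intensity minimum of 0.598, so these genes reached the test only through the depleted arrays. Krt34 read 0.618 against 0.622 and 1.17, so the first depleted array equalled wild type within 0.01 on the log2 scale. Krt32 read 0.836 against 1.06 and 0.703, Krt84 1.07 against 0.928 and 0.857, and Krt88 0.819 against 1.20 and 0.645. Each of these 6 genes was above the median on 1 array, and that array varied: wild type for Krt84, the first depleted array for Krt32 and Krt88, and the second for Krt33b, Krt34 and Krt36. The other 15 genes of this group read between 0.009 and 0.787, and 6 of the 21 were under the pseudocount on every array.

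Of the 72 genes, 22 passed the intensity minimum and were tested, while 50 were not, and those tested do not stand for the whole set. Of the 22, 13 were above wild type in both depleted arrays and 3 were below it in both, where over all genes tested 39.0% were above and 19.5% below. Krt4, Krt42 and Krt222 count among the 13 by their brightest probe sets, and their other probe sets were not above wild type in both. Lce3f and Krt33b, also among the 13, reached the test only through the depleted arrays. At least 2-fold higher in both depleted arrays was 1 of the 22, Lce3f, against 0.841% of all genes tested, and at least 2-fold lower in both was 0, against 0.488%. In the first depleted array alone, 1 of the 22 was at least 2-fold higher (3.19% of all genes tested) and 0 were 2-fold lower (3.23%). In the second alone, 3 were 2-fold higher, namely Lce3f, Krt33b and Krt36 (3.57%), and 0 were 2-fold lower (1.64%). The wild type values of these 3 genes lie under the intensity minimum. They reached the test only through the depleted arrays, so the counts of 2-fold higher genes depend on the filter. At an unadjusted p under 0.05 limma had 1 of the 22, Lce3f, against 2.27% of all genes tested. Among the 50 genes not tested, 0 differed 2-fold in 1 direction on both depleted arrays. The median difference of the tested genes was 0.26 and 0.40 for 7 simple keratins and 0.02 and 0.13 for 5 stratified keratins. It was 0.14 and 0.26 for 6 hair keratins and 0.48 and 0.07 for 3 Lce genes. Krt33b and Krt36 are among the 6 and Lce3f among the 3, so these medians depend on the filter too. As the mean of both depleted arrays, the median for hair keratins was 0.20 with the filter and 0.035 without it. For Lce genes it was 0.27 with the filter and 0.023 without it.

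**Figure D3:**
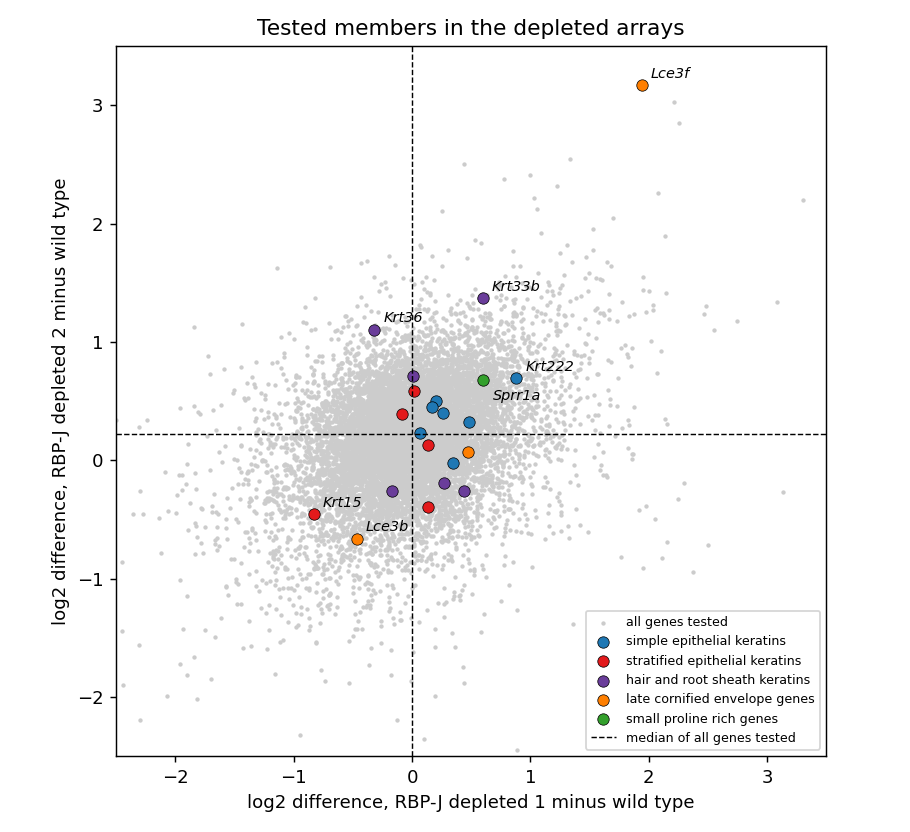
Log2 difference from wild type in the first depleted array (horizontal) and in the second (vertical) for the 22 tested keratin and envelope genes, coloured by group, over all 11885 genes tested in grey; dashed lines give the medians of all genes tested, and 10 grey points lie outside the axes. Lce3f stands at 1.94 and 3.17, and the simple keratins lie between 0.07 and 0.88 on the horizontal axis.

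The bright genes of the set were set beside other bright genes. The 6 with a mean of at least 10, Krt7, Krt8, Krt18, Krt19, Krt20 and Sprr1a, were all above wild type in both depleted arrays, with medians of 0.23 and 0.42. Of the 3636 tested genes with a mean of at least 10, 47.1% were above wild type in both, with medians of 0.03 and 0.32. Of the 757 with a mean of at least 40, 65.9% were above wild type in both, with medians of 0.09 and 0.36. The intestinal epithelial markers had medians of 0.12 and 0.47, and 8 of the 10 were above wild type in both. Among these 6 genes, the direction of Krt8 and Krt18 moved with the scaling. With quantile normalization Krt8 gave -0.04 and -0.17 and Krt18 0.42 and -0.06, while 4 of the 6 stayed above wild type in both. With arrays brought to 1 common 75th percentile, all 6 stayed above wild type in both. With arrays scaled to genes whose mean reached 5, Krt8 gave 0.10 and -0.04, and the other 5 stayed above wild type in both.

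Genes that anchor keratin filaments were measured too. In the list of keratin linkers and desmosome genes, 14 of 17 measured genes were tested, 0 were called in either direction, and 9 were above and 3 below wild type in both depleted arrays, with medians of 0.21 and 0.25. Dsp, for desmoplakin, which ties keratins to desmosomes, read 74.6 in wild type against 94.0 and 90.3. The desmosomal cadherins Dsg2 and Dsc2 read 42.0 against 61.6 and 67.5, and 44.2 against 48.4 and 57.0. Eppk1, for the keratin-binding protein epiplakin, read 38.2 against 44.6 and 44.5. For each of these 4 genes, the brightest of the list, wild type was the lowest array. The lowest limma adjusted p of the list was 0.9997, and 0 of its genes had an unadjusted p under 0.05.

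Other genes of the cornified envelope and of epidermal differentiation were mostly dim. Of 27 measured genes 21 were below the array median on every array, and 7 were tested, of which 0 were called and 0 had an unadjusted p under 0.05 by limma. Their medians were 0.56 and 0.18. Of the 7, Lor, Sbsn and Alox12b read 0.418, 0.481 and 0.381 in wild type, under the intensity minimum of 0.598. They reached the test only through the depleted arrays, so these medians depend on the filter. Evpl, for the envelope and desmosome protein envoplakin, read 1.64 in wild type against 1.93 and 1.73, and Cnfn, for cornifelin, 1.32 against 1.36 and 1.43. Tchh, for the hair follicle protein trichohyalin, read 0.872 against 1.88 and 1.09, and Sbsn, for suprabasin, 0.481 against 0.828 and 1.64. Both depleted arrays were above wild type for each of these 4 genes. For Evpl and Cnfn the differences of the second depleted array, 0.06 and 0.10, lie under the median of 0.22 for all genes tested.

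Regulators of stratified differentiation likewise gave 0 calls by limma among 10 tested of 17 measured genes, with 0 at an unadjusted p under 0.05. Their medians were 0.03 and 0.44, and 6 were above and 2 below wild type in both depleted arrays. Maf, a transcription factor, read 69.9 in wild type against 80.6 and 96.0. Klf5 and Klf4, Krüppel-like factors of proliferating and of differentiated gut epithelium, read 48.8 against 49.3 and 69.3, and 24.5 against 32.9 and 34.9. The epithelial factor Elf3 read 16.4 against 17.0 and 22.7. Trp63, the master regulator of stratified epithelia, read 0.558 against 0.061 and 0.680, below the array median on every array.

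**Figure D4:**
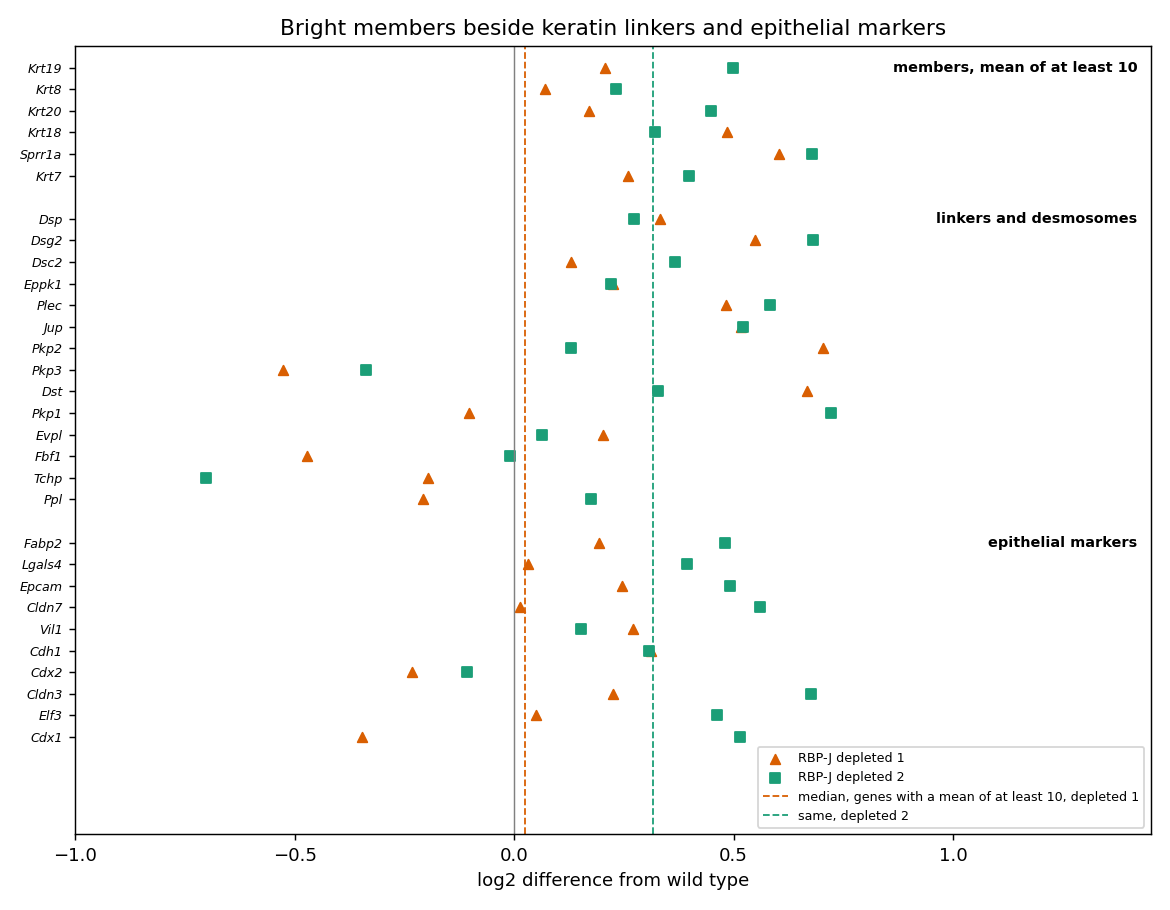
Log2 difference from wild type in the first (triangles) and the second depleted array (squares) for the 6 bright keratin and envelope genes, the 14 tested linker and desmosome genes and 10 intestinal epithelial markers. Dashed lines give the medians of all tested genes whose mean reached 10, which were 0.03 and 0.32; the 6 bright genes lie at 0.07 to 0.60 in the first array and 0.23 to 0.68 in the second.

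Marker genes of several cell types did not read the same on the 3 arrays, while cell makeup itself was not measured. Each sum below is carried by its brightest probe sets. The second depleted array also ran higher over all genes tested, with a median difference of 0.22. The 10 epithelial markers summed to 702 in wild type and to 771 and 931 in the depleted arrays. The 8 M cell markers summed to 325 against 349 and 464, with 5 of 8 above wild type in both. For Gp2, Spib and Ccl20 wild type lay between the depleted arrays, with Gp2 at 19.8 against 9.90 and 32.6. The 7 goblet cell markers, all above the median on every array, summed to 485 against 778 and 652, with 6 of 7 above wild type in both. The 8 measured B cell markers summed to 53.7 against 26.7 and 66.9, and 4 of 8 were below wild type in both. The 5 T cell markers summed to 14.0 against 11.2 and 19.2, and the 6 markers of fibroblasts and lymphoid stroma to 3.24 against 2.80 and 4.92. The 9 squamous markers summed to 5.51 against 6.04 and 8.33, of which Krt10 alone gave 3.89, 3.65 and 5.17. Krt1, Krt5, Krt10 and Krt14 of this list belong to the keratin genes studied here. None of these markers was at 0 on every array, and 0 of them were called by limma, with 1 B cell and 2 goblet cell markers at an unadjusted p under 0.05. The part of these differences in the values of the keratin and envelope genes was not tested.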

How the data were processed

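RNA of 3 samples was hybridised to Affymetrix arrays as biotin-labelled cRNA. The authors deposited linear intensities, and the submitters' processing notes name MAS5. Every array has a median of 1. Detection calls and scanner files were not analysed here, and for arrays their number limits the precision. Gene symbols come from the platform annotation, and chromosomes and promoters come from RefSeq (GRCm38.p6). Of 45101 probe sets, 34945 had 1 symbol.

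Intensities were used as deposited. R 4.3.3 with limma 3.58.1 (lmFit, eBayes with trend) compared 2 depleted arrays with 1 wild type array on log2(value + 0.248), the 25th percentile of all values. Genes with a mean of at least 0.598, the 40th percentile, were tested. Each gene has 1 residual degree of freedom, to which eBayes added 600.5 prior degrees. The code was tested on simulated data.

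Named were genes above the array median, called or 2-fold in both depleted arrays, with their other probe sets, and, of other lists, up to 4 of the brightest. The genes and lists were chosen with earlier results of these data known. Alternatives covered pseudocount, filter, normalization, probe sets, trend and replicates.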

Additional observations from a re-analysis of the deposited data

How the results depend on the processing

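Lce3f was called with the main settings, with the probe sets of each gene averaged and without the intensity trend. As Lce3f has 1 probe set, averaging left its values and its difference of 2.55 unchanged and is no separate check of them. The number of keratin and envelope genes called was 0 with a pseudocount of 1 or 5, without a filter, with a filter set at the 60th percentile, after quantile normalization, after giving arrays 1 common 75th percentile and after scaling arrays to genes whose mean reached 5, an alternative chosen after seeing the data. Its limma adjusted p ranged from 0.123 with a pseudocount of 1 to 1 with no filter over the 6 of these settings in which it was tested, and with quantile normalization its difference was still 2.51. Over all genes, the 10 calls became 6 with the 60th percentile filter, 1 without a filter, 4 after quantile normalization, 4 with a common 75th percentile and 5 with scaling to genes whose mean reached 5. The number of genes of the set that differed 2-fold on both depleted arrays was 0 with a pseudocount of 1 or 5 and with the 60th percentile filter, and 1 to 3 with 1 depleted array left out.

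Group medians, as the mean of both depleted arrays, moved by more than the spread between these arrays as follows. For simple keratins 0.33 became 0.14 with quantile normalization and 0.21 with scaling to genes whose mean reached 5. For stratified keratins 0.072 became 0.23 with the 60th percentile filter, -0.086 with the mean of probe sets and -0.018 with scaling to genes whose mean reached 5. For hair keratins 0.20 became 0.035 with no filter, 0.039 with a pseudocount of 5 and 0.11 with that scaling. For Sprr genes 0.64, the value of Sprr1a, became -0.011 with no filter, where the dim genes enter, 0.58 with a pseudocount of 5, 0.43 after quantile normalization, 0.57 where arrays share their 75th percentile and 0.52 with that scaling.

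Among named genes, Krt8 turned to -0.11 with quantile normalization, Krt42 to -0.34 with the mean of its probe sets, and Krt32 to -0.0115 with the same 75th percentile and -0.050 with scaling to genes whose mean reached 5. With 1 depleted array left out, a value with no test, the range was -0.087 to 0.39 for Krt10, -0.39 to 0.14 for Krt16, -0.026 to 0.35 for Krt23, -0.19 to 0.27 for Krt32, -0.32 to 1.10 for Krt36 and -0.26 to 0.44 for Krt88. Except where shown, the cause was not tested. Limma calls could not be made with 1 depleted array left out, since no residual degree of freedom is left. No paired analysis was possible because wild type has 1 array. Without scanner files, signal over background is unknown, and most of the 72 genes are too dim for their differences to be read.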

Other observations

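Some genes of the related lists stayed under the intensity minimum, were not tested, and yet differed at least 2-fold on both depleted arrays. Tgm3, for a transglutaminase that crosslinks envelope proteins, read 0.668 in wild type against 0.184 and 0.049. Grhl1, a transcription factor of epidermal differentiation, read 1.17 against 0.055 and 0.314. Dmkn, for dermokine, a secreted protein of upper epidermis, went the other way, at 0.061 against 0.373 and 0.614. Differences computed from such low values depend on the pseudocount, and they are given as values with no test. They were chosen after their values were seen.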
